A study of Tupaia belangeri with 15 samples.

Results

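The 6 genes named as subunits of phosphodiesterase 6 (PDE6) were followed across the cell classes of the tree shrew (TS, Tupaia belangeri) retina and across 3 stages of life. They are PDE6A, PDE6B, PDE6C, PDE6G, PDE6H and PDE6D, chosen by gene name among 83605 listed features, and 5 of the 6 had at least 1 unique molecular identifier (UMI, 1 captured RNA molecule). Single-nucleus RNA sequencing (snRNA-seq) had been run on 15 retinas, 5 per stage. In the study's list of animals, those of Infancy were between 1.4 and 2.1 months old, those of Mature between 24.96 and 36 and those of Senile between 85.8 and 86.56, and the list is not tied to single retinas. The labels name no allele or treatment. Infant and mature animals came from one animal centre and senile animals from another institute, so in comparisons with Senile the stage and the source cannot be told apart. Sex is not in the labels and was not used.

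PDE6 is the enzyme of the outer segment that breaks down cyclic GMP when light activates transducin, which lets the cation channels close. Rods build it from the catalytic subunits encoded by PDE6A and PDE6B with the inhibitory gamma subunit of PDE6G, whereas cones pair copies of the PDE6C product with the gamma subunit of PDE6H. PDE6D encodes a prenyl-binding protein that carries lipid-anchored proteins through the cytosol, PDE6 among them, and it is made in many tissues. The TS is active by day and its retina is dominated by cones.

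Of 120437 barcodes, 119765 passed filters on the number of genes (over 200, below 6000) and on the mitochondrial share (below 5%). Nuclei were placed in classes by other marker genes, with no PDE6 gene among them, which left 46852 gated nuclei, among them 12913 cones, 1105 rods, 8811 bipolar cells (BCs), 1190 horizontal cells (HCs), 9000 amacrine cells (ACs), 4797 retinal ganglion cells (RGCs), 6996 Müller cells, 1318 astrocytes and 722 microglia. Every marker used had its highest level in its own class, which the gate itself largely set, since it placed nuclei by these markers. The rod gate rested on 7 markers. Senile 1 gave 0 rods, and the other 14 retinas gave 31 to 145. The libraries held 13429873 to 58734300 UMIs, and pairs of libraries shared 4 to 30 barcodes. Levels are given as CPM, a gene's UMIs for every 1000000 UMIs summed over one class in one retina. CPM values of different genes are not compared with each other, since no transcript lengths were used.

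Over the 15 libraries PDE6H had 96229 UMIs, PDE6D 82264, PDE6C 78180, PDE6A 10820 and PDE6B 5279. PDE6G, the rod gamma subunit, was listed at 0 in every library. The genes GNGT2, CNGA1, CNGA3, CNGB3 and AIPL1 were likewise listed at 0, and so were EEF1A1 and RPLP0, genes that all cells use. No level or fold is therefore given for PDE6G.

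PDE6A, a catalytic subunit of rod PDE6, was concentrated in gated rods, at 1323 ± 374 CPM (SD, n = 14 retinas). The values in rods were 1226, 1024, 1374, 1665 and 1847 CPM in Infancy 1 to 5, then 1267, 1418, 1473, 1631 and 1865 CPM in Mature 1 to 5, and 643, 1166, 685 and 1243 CPM in Senile 2 to 5. The cones of all 15 retinas lay between 4.86 and 27.5 CPM, with a mean of 16.2 ± 6.32 CPM (SD, n = 15). The ranges did not overlap, and the median retina had 74.7 times as much PDE6A in its rods as in its cones. In the edgeR quasi-likelihood fit with the retina as a block, PDE6A was lower in cones by a log2 fold change of -6.24 (SE 0.16, Benjamini-Hochberg adjusted p = 1.35e-21), in the same direction in 14 of 14 retinas.

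PDE6B, the other catalytic subunit of rods, followed the same split. In rods it stood at 820, 509, 630, 700 and 944 CPM in Infancy, at 736, 943, 914, 969 and 973 CPM in Mature, and at 406, 526, 631 and 814 CPM in Senile 2 to 5. In cones it ranged from 0 to 4.53 CPM, and the 12913 cones together held 158 PDE6B UMIs. The ranges did not overlap. Cones against rods gave a log2 fold change of -8.08 (SE 0.17, edgeR, Benjamini-Hochberg adjusted p = 1.63e-23), again in 14 of 14 retinas.

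PDE6C, the catalytic subunit of cones, showed the opposite pattern. Its levels in cones were 1061, 991, 870, 1000 and 875 CPM in Infancy 1 to 5, 954, 1183, 762, 652 and 779 CPM in Mature 1 to 5, and 1025, 821, 844, 527 and 775 CPM in Senile 1 to 5. Its levels in rods ran from 6.51 CPM in Senile 5 to 314 CPM in Senile 2, with a median of 89.6 CPM. Every retina with rods was higher in cones, by 9.33 times in the median retina, and the log2 fold change was 3.35 (SE 0.21, edgeR, Benjamini-Hochberg adjusted p = 5.2e-13).

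PDE6H, the gamma subunit of cones, was also higher in cones in 14 of 14 retinas, but with a smaller gap. Cones held 682, 540, 579, 825 and 907 CPM in Infancy, 379, 600, 1102, 933 and 999 CPM in Mature, and 679, 759, 514, 947 and 1396 CPM in Senile. Rods held 104, 79.7, 50.1, 175 and 30.6 CPM in Infancy, 118, 109, 147, 144 and 63.5 CPM in Mature, and 383, 298, 240 and 299 CPM in Senile 2 to 5. The lowest cone value, 379 CPM in Mature 1, and the highest rod value, 383 CPM in Senile 2, met. The median retina had 6.0 times as much in cones, with a log2 fold change of 2.64 (SE 0.21, edgeR, Benjamini-Hochberg adjusted p = 2.83e-11).

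PDE6D, the prenyl-binding carrier, was measured at close levels in both photoreceptors. Over the retinas its cone level had a lowest value of 331 CPM, a median of 426 CPM and a highest of 602 CPM, and in rods these were 298, 462 and 654 CPM. The ranges lay over each other, and cones were the higher class in 4 of 14 retinas. The log2 fold change was 0.03 with a 95% interval of -0.11 to 0.18 (edgeR, Benjamini-Hochberg adjusted p = 0.847). With no filter on low counts the fit gave 0.38 (Benjamini-Hochberg adjusted p = 5.37e-05).

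Of the 5 members measured, 4 passed in this comparison, where 45.8% of 8780 features tested did. PDE6B passed the filter on low counts through its rod sums and had 158 UMIs in all cones, so the size of its fold change rests on few cone counts. The 2 cone subunits were among the 24.9% of features higher in cones, and the 2 rod catalytic subunits were among the 20.9% higher in rods.

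**Figure D1:**
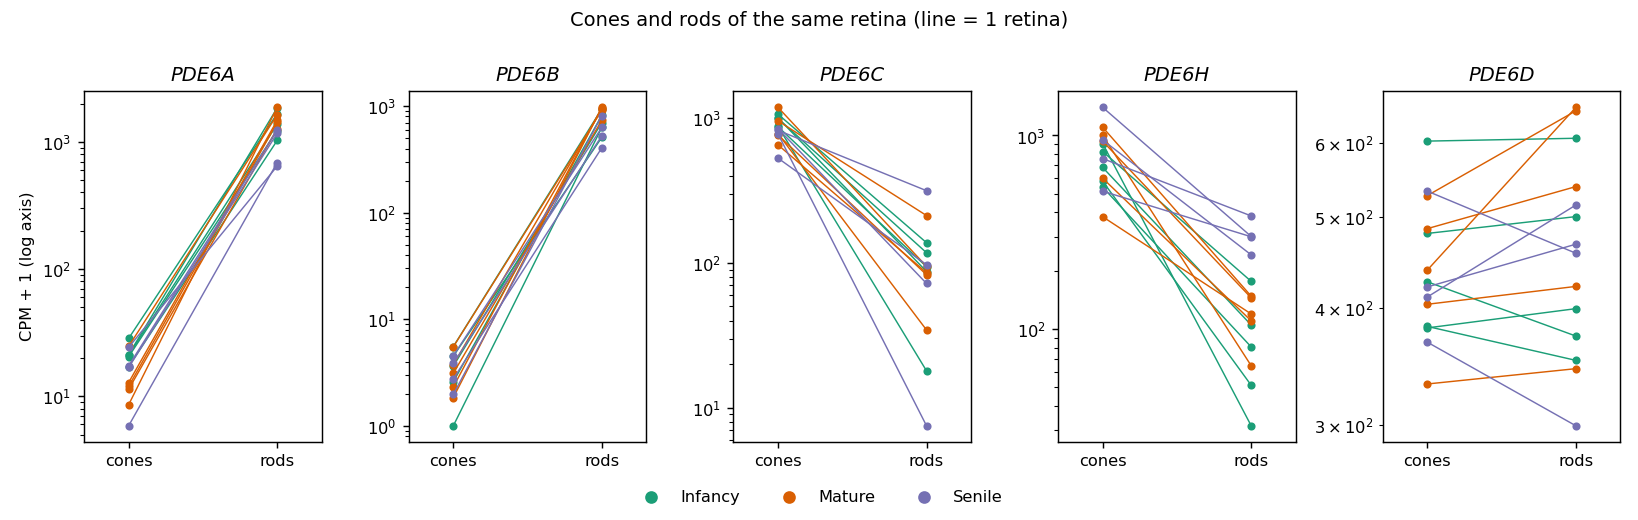
Levels of 5 PDE6 genes in the cones and rods of the same retina, as CPM + 1 on a log axis, with 1 line per retina (n = 14) coloured by stage. The lines of PDE6A and PDE6B rise to rods in every retina, those of PDE6C and PDE6H fall in every retina, and those of PDE6D cross.

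The signal of the cone subunits in rods was set beside that of the cone markers. Pooled over retinas, PDE6C in rods was 9.63% of its cone level, ARR3 (cone arrestin) 9.42%, GNAT2 (cone transducin alpha) 8.25% and OPN1LW (the long-wavelength cone opsin) 8.19%. The other cone markers were GRK7 (a cone opsin kinase) at 32.1% and OPN1SW at 1.17%. PDE6H stood at 16.8%, between GRK7 and the rest. In ACs, which should lack all of these, PDE6C was at 1.12% of its cone level, ARR3 at 1.40% and PDE6H at 6.51%.

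For each ARR3 UMI there were 0.168 PDE6C UMIs in cones, 0.171 in rods and 0.134 in ACs. Over all 9 classes this ratio lay between 0.13 in Müller cells and 0.18 in BCs. PDE6H did not keep one ratio to ARR3, with 0.150 UMIs per ARR3 UMI in cones, 0.266 in rods, 0.705 in BCs, 0.697 in ACs and 0.633 in Müller cells. GNAT2 stayed between 0.173 and 0.238 in all 9 classes. As a share of its cone level, PDE6H stood at 4.17% in RGCs to 20.0% in microglia, above each of the 5 cone markers in all 7 classes other than cones and rods. In rods GRK7 was the higher. The source of the PDE6H signal was not tested.

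**Figure D2:**
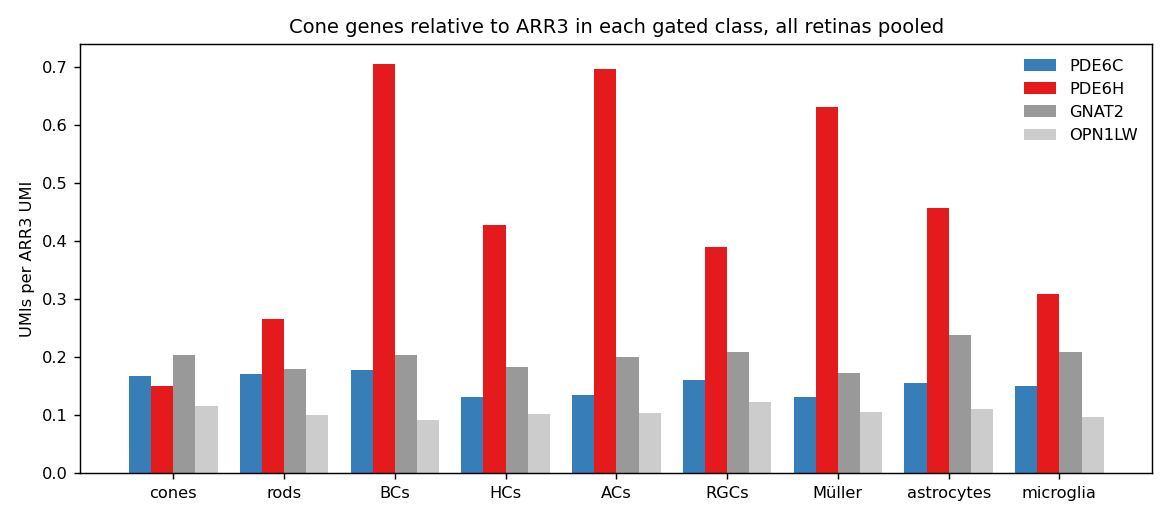
UMIs of PDE6C, PDE6H, GNAT2 and OPN1LW per ARR3 UMI in each gated class, all retinas pooled (bars, linear axis from 0). PDE6H bars rise from 0.150 in cones to 0.705 in BCs, and GNAT2 bars stay between 0.173 and 0.238.

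Of the 1105 rods, 506 held no UMI of any cone marker and had a median depth of 1789 UMIs, against 3578 UMIs for the other 599. In these 506 nuclei PDE6C came to 16 UMIs, or 12.8 CPM, and PDE6H to 92 UMIs, or 73.6 CPM, while PDE6A was at 1552 CPM, PDE6B at 927 CPM and PDE6D at 493 CPM. Used in place of all rods, they gave a log2 fold change of cones against rods of 6.31 for PDE6C and 3.58 for PDE6H. This choice of rods was made after the data were seen.

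Counted per nucleus, the same split appeared. A PDE6C UMI was found in 92.2% of cones and 10.3% of rods, and a PDE6H UMI in 85.1% of cones and 22.5% of rods. PDE6A was seen in 89.1% of rods and 7.22% of cones, and PDE6B in 80.9% of rods and 1.15% of cones. PDE6D was seen in 76.1% of cones and 68.9% of rods. Median depths were 3611 UMIs in cones and 2705 UMIs in rods.

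For comparison, ACs with a median of 3064 UMIs gave 3.49% for PDE6C, 16.3% for PDE6H, 2.47% for PDE6A, 0.344% for PDE6B and 26.7% for PDE6D. After each nucleus was thinned to 1000 UMIs, with 87 cones, 62 rods and 192 ACs left out as shallower, PDE6C was seen in 58.9% of cones, 4.41% of rods and 1.04% of ACs. PDE6H was seen in 49.3%, 10.4% and 5.37% of them, and PDE6D in 35.1%, 39.0% and 8.78%. Thinned shares of PDE6A were 73.6% in rods, 1.53% in cones and 0.749% in ACs, and those of PDE6B were 57.9%, 0.218% and 0.0568%.

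The 2 catalytic subunits of rods were mostly found in the same nuclei. Of 1105 rods, 835 (75.6%) held both PDE6A and PDE6B, 149 PDE6A alone, 59 PDE6B alone and 62 neither. Thinned to 1000 UMIs, 46.7% of rods held both, where the product of the single shares was 42.6%. In cones, 10266 of 12913 (79.5%) held both PDE6C and PDE6H and 276 held neither, and thinned shares of both were 28.7% against a product of 29.1%. In rods, PDE6H was seen in 56.1% of nuclei with a PDE6C UMI and in 18.7% of those without. Thinned to 1000 UMIs, 1.53% of rods held both PDE6C and PDE6H, where the product of the single shares was 0.457%. Nuclei of one retina are not replicates, so these shares carry no test.

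Across the 9 classes each member was ranked by its mean CPM, and neighbours in the order were compared over retinas with an exact sign-flip permutation test (2-sided, Benjamini-Hochberg over 40 pairs). The smallest adjusted p among these was 0.000977, and 9 of 40 neighbouring pairs passed 0.05.

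PDE6A went from 1323 CPM in rods to 16.8 ± 10.1 CPM in BCs (SD, n = 15) and 16.2 CPM in cones. Only the step from rods to BCs passed (exact permutation, adjusted p = 0.000977, 14 of 14 retinas), and no neighbouring pair below it differed beyond its spread. BCs and ACs are not neighbours in this order, so their difference carries no test here. PDE6A was higher in BCs than in ACs in 15 of 15 retinas, by 2.49 times in the median retina. In nuclei without a UMI of any rod marker it stood at 16.04 CPM in BCs and at 6.79 CPM in ACs. The part of rod RNA in the PDE6A value of BCs was not tested further. PDE6C went from 875 ± 168 CPM in cones to 103 ± 79.1 CPM in rods (exact permutation, adjusted p = 0.000977), with microglia, HCs, astrocytes, Müller cells, BCs, RGCs and ACs following from 76.2 down to 9.55 CPM without a further step that passed. As a share of its cone level PDE6C was at 8.69% in microglia and 3.54% in HCs, and ARR3 was at 9.72% and 4.50%. The part of cone RNA in the PDE6C values of these classes was not tested.

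PDE6B had a second step. It went from 751 ± 189 CPM in rods (SD, n = 14) to 12.7 ± 4.92 CPM in BCs (SD, n = 15), and BCs exceeded the next class, microglia at 4.07 CPM, in 13 of 15 retinas (exact permutation, adjusted p = 0.00663). BCs ranged from 6.01 to 19.7 CPM, all above the ACs of the same retina, which had 0.722 ± 0.698 CPM (SD, n = 15). In nuclei without a UMI of any of the 7 rod markers, PDE6B stood at 13.1 CPM in BCs (294 UMIs in 7761 nuclei) and at 0.803 CPM in ACs (24 UMIs in 8248 nuclei). Over all nuclei of both classes 6 of the 7 rod markers were also higher in BCs than in ACs, among them ROM1 (18.7 against 6.85 CPM), SAG (13.4 against 9.19 CPM), CLUL1 (6.28 against 5.65 CPM) and GNAT1 (3.52 against 0.644 CPM), and NRL was not (0.330 against 0.439 CPM). As a share of its rod level PDE6B was at 1.63% in BCs and 0.110% in ACs, and GNAT1 at 2.00% and 0.365%. The part of rod RNA in the PDE6B value of BCs was not tested beyond the nuclei without rod markers. A non-coding feature named LINC-PDE6B-1 was at 13 CPM in BCs, at most 1.91 CPM in any other class, and 0.90 CPM in rods. Whether it overlaps PDE6B, so that their reads could be mixed, was not tested.

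PDE6H had the order cones, microglia, rods, HCs, astrocytes, Müller cells, BCs, ACs and RGCs, with 789 ± 265 CPM in cones (SD, n = 15), 162 ± 97.4 CPM in microglia (SD, n = 15) and 160 ± 106.5 CPM in rods (SD, n = 14). Cones exceeded microglia (adjusted p = 0.000977), rods exceeded HCs (adjusted p = 0.0122), BCs exceeded ACs (adjusted p = 0.00163) and ACs exceeded RGCs (adjusted p = 0.0279), all by the exact permutation test. RGCs held 41.3 CPM.

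PDE6D had UMIs in every class of every retina, except for Senile 1, which had 0 rods. Its means were 469 CPM in rods, 442 CPM in cones, 172 CPM in microglia, 159 CPM in BCs, 142 CPM in HCs, 115 CPM in Müller cells, 96.6 CPM in astrocytes, 94.4 CPM in ACs and 86.1 CPM in RGCs. Rods and cones did not differ beyond their spread (exact permutation, adjusted p = 0.467), cones exceeded microglia (exact permutation, adjusted p = 0.000977), and no lower neighbours passed. Its spread over retinas in cones was the narrowest of the members, with an SD of 16.3% of the mean, against 19.2% for PDE6C and 33.5% for PDE6H.

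**Figure D3:**
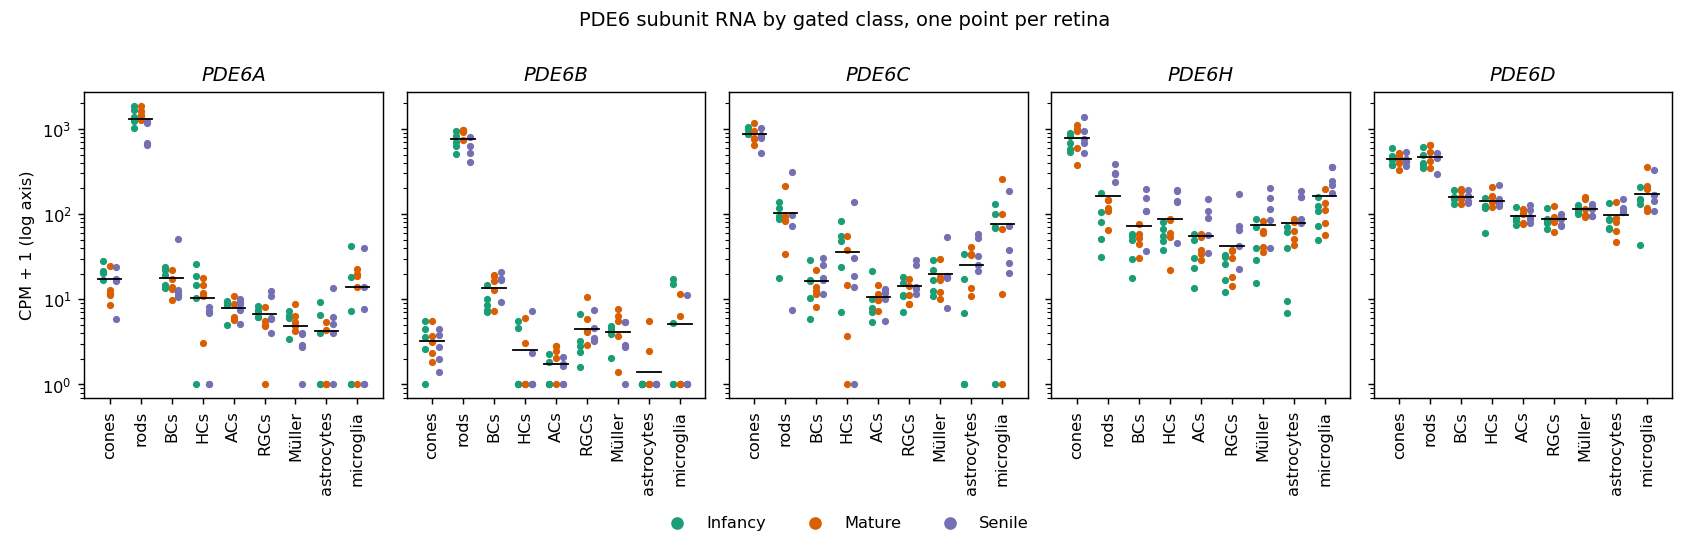
Levels of 5 PDE6 genes in 9 gated classes as CPM + 1 on a log axis, with 1 point per retina coloured by stage and a black line at the mean. PDE6A and PDE6B peak in rods, PDE6C and PDE6H in cones, and PDE6D stands at 442 to 469 CPM in both photoreceptors and at 86.1 to 172 CPM in the other classes.

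Cones were split by opsin UMIs into 11249 L-cones (OPN1LW) and 281 S-cones (OPN1SW), and 10 retinas had at least 10 nuclei of both. L-cones had an OPN1LW UMI and no OPN1SW UMI, and S-cones at least 2 OPN1SW UMIs and more than of OPN1LW. Among nuclei already gated as cones the opsins alone made the split, and cones that met neither rule were left out. PDE6C, PDE6H and PDE6D were all higher in L-cones than in S-cones.

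PDE6C was at 1008, 1021 and 884 CPM in the L-cones of Infancy 2, 4 and 5, at 973, 1218, 780 and 661 CPM in those of Mature 1 to 4, and at 1025, 861 and 796 CPM in those of Senile 1, 3 and 5. In the S-cones of the same retinas it was at 643, 714 and 659 CPM, at 628, 851, 433 and 446 CPM, and at 835, 714 and 485 CPM. L-cones were the higher in 10 of 10 retinas although the ranges overlapped, with a log2 fold change of 0.68 (SE 0.07, edgeR with the retina as a block, Benjamini-Hochberg adjusted p = 1.63e-10).

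PDE6D, in the same order of retinas, was at 381, 430, 611, 443, 413, 537, 337, 453, 374 and 416 CPM in L-cones. In S-cones it was at 237, 349, 428, 364, 291, 301, 166, 343, 343 and 285 CPM. L-cones were again higher in 10 of 10 retinas, by a log2 fold change of 0.62 (SE 0.09, edgeR, Benjamini-Hochberg adjusted p = 2.03e-07).

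PDE6H was at 545, 838, 913, 382, 607, 1117, 939, 679, 505 and 1409 CPM in L-cones. In S-cones it was at 541, 609, 758, 299, 623, 700, 746, 507, 453 and 925 CPM. Infancy 2 was nearly level and Mature 2 went the other way, so that 9 of 10 retinas were higher in L-cones. This came to a log2 fold change of 0.49 (SE 0.07, edgeR, Benjamini-Hochberg adjusted p = 5.05e-07).

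The call for PDE6H did not hold without the retina block (adjusted p = 0.315), with sums thinned to an equal total (adjusted p = 0.0746) or with an exact sign-flip permutation test (adjusted p = 0.0738). The permutation test gave an adjusted p of 0.0372 for PDE6C and PDE6D, each at the smallest raw p it allows, 0.00195. PDE6A, with a mean of 17.3 CPM in L-cones and 11.6 CPM in S-cones, had a log2 fold change of 0.58 (SE 0.32, edgeR, Benjamini-Hochberg adjusted p = 0.346), and PDE6B did not pass the filter on low counts. So 3 of 4 members tested were called, all higher in L-cones, where 10.3% of 9538 features were called and 6.09% were higher in L-cones.

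S-cone nuclei were deeper, with a median of 6122 UMIs against 3699 UMIs. Per nucleus, L-cones held 4.58 PDE6C UMIs and S-cones 4.14, while PDE6H came to 4.06 and 4.50 UMIs and PDE6D to 2.30 and 2.15 UMIs. Against 1405 L-cones matched in depth, with a median of 6107 UMIs, the log2 fold changes were 0.57 for PDE6C, 0.42 for PDE6H and 0.56 for PDE6D, and all 3 passed. This matching was added after the data were seen. GNAT2, a cone marker of the gate, was higher in L-cones too, by 0.34 on the log2 scale (edgeR, Benjamini-Hochberg adjusted p = 1.48e-04). ARR3, another cone marker of the gate, was pooled at 5368 CPM in the L-cones matched in depth and at 2664 CPM in S-cones. GRK7 ranged from 383 to 648 CPM in the L-cones of the retinas compared and from 194 to 491 CPM in their S-cones. SAG, the arrestin of rods, was at 2820 CPM in S-cones against 77.9 CPM in L-cones and 3206 CPM in rods. It was also a rod marker of the gate, and its effect on which S-cones were gated as cones was not tested.

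**Figure D4:**
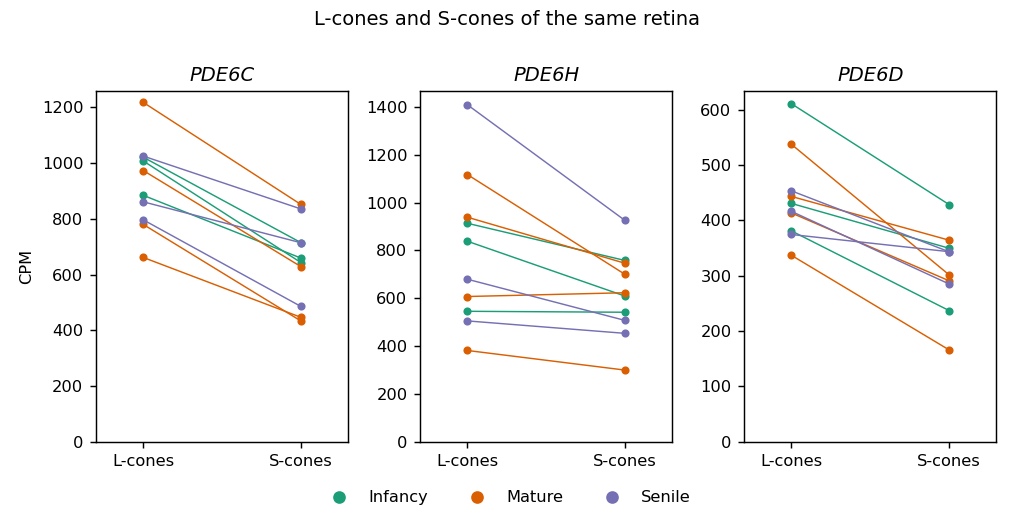
CPM of PDE6C, PDE6H and PDE6D in L-cones and S-cones of the same retina on linear axes from 0, with 1 line per retina (n = 10) coloured by stage. PDE6C and PDE6D fall toward S-cones in 10 of 10 retinas and PDE6H in 9 of 10.

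With stage, no member passed in cones. PDE6C in cones had means of 959 ± 84.0, 866 ± 208 and 799 ± 179 CPM in Infancy, Mature and Senile (SD, n = 5 each), and the stages overlapped in the values given above. The log2 fold change of Senile against Infancy was -0.31 with a 95% interval of -0.60 to -0.02, and it did not pass over all features (edgeR with the Cell Ranger version as a term, Benjamini-Hochberg adjusted p = 0.445).

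PDE6H in cones had means of 707 ± 157, 803 ± 302 and 859 ± 338 CPM (SD, n = 5 each). The retina with the highest value was senile and the one with the lowest was mature. The log2 fold change of Senile against Infancy was 0.09 with a 95% interval of -0.38 to 0.56 (edgeR, Benjamini-Hochberg adjusted p = 0.954), and that of Senile against Mature was 0.10 with an interval of -0.36 to 0.57 (edgeR, Benjamini-Hochberg adjusted p = 0.924). PDE6H in cones moved with the version of Cell Ranger in the file headers, at 603 ± 123 CPM in the 7 retinas of version 6.1.2 (SD, range 379 to 759) and at 953 ± 249 CPM in the 8 of version 7.0.1 (SD, range 514 to 1396). PDE6C went the other way, with 986 ± 121 and 777 ± 142 CPM (SD). The 2 versions also mark 2 sets of deposited libraries, so version and set cannot be told apart. Median UMIs per barcode ranged from 1461 to 3068 in the libraries of version 6.1.2 and from 2268 to 5611 in those of 7.0.1. Each stage held retinas of both versions. Within version 6.1.2 the log2 fold change of Senile against Infancy was 0.17 for PDE6H and -0.17 for PDE6C, and within version 7.0.1 it was 0.09 and -0.46, none of them past 0.05 by edgeR. What lies behind the difference between versions was not tested.

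PDE6D in cones had stage means of 454, 437 and 435 CPM and a log2 fold change of Senile against Infancy of -0.16 (edgeR, Benjamini-Hochberg adjusted p = 0.828). PDE6A, the rod subunit, had 437, 328 and 267 UMIs in the cones of the 3 stages, with means of 20.7 ± 4.18, 12.9 ± 6.23 and 15.1 ± 6.59 CPM (SD, n = 5 each). Mature 4, at 23.7 CPM, lay within the range of Infancy and the other mature retinas below it. The log2 fold change of PDE6A was -0.71 for Mature against Infancy, with a 95% interval of -1.41 to -0.02 (edgeR, Benjamini-Hochberg adjusted p = 0.428), and -0.55 for Senile against Infancy (edgeR, Benjamini-Hochberg adjusted p = 0.643). At an unadjusted p under 0.05 stood PDE6A in Mature against Infancy and PDE6C in Senile against Infancy. In cones, 0 of 4 members tested passed in Senile against Infancy, where 1.84% of 14534 features did, and 0 of 4 in Mature against Infancy, where 1.40% did. In Senile against Mature 0 of 4 passed and 0% of all features were called by edgeR. In that comparison 1268 features had an unadjusted p under 0.05, none of them for a member, and DESeq2 called 50 features. PDE6B was below the filter in cones.

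In rods, the 14 retinas showed larger shifts that did not pass 0.05. PDE6A was at 1427 ± 331 CPM in Infancy (SD, n = 5), 1531 ± 228 CPM in Mature (SD, n = 5) and 934 ± 314 CPM in Senile (SD, n = 4). Senile 2 and 4 lay below every younger retina, while Senile 3 and 5 lay within the range of Infancy. The log2 fold change of Senile against Infancy was -0.82 (SE 0.19, edgeR, Benjamini-Hochberg adjusted p = 0.0703). The summed level of the 7 rod markers in the same nuclei went from 16709 ± 5402 CPM in Infancy to 13277 ± 4221 CPM in Mature and 10088 ± 1482 CPM in Senile (SD), and its part in the PDE6A value was not tested. Much of that fall lay in CLUL1, which ranged from 4811 to 17013 CPM in Infancy and from 2974 to 7448 CPM in Senile. SAG ranged from 2354 to 4818 CPM in Infancy and from 2220 to 4416 CPM in Senile. That sum also moved with the Cell Ranger version. Within version 7.0.1 the sum was 9882 and 12687 CPM in Infancy and 9362, 9588 and 11962 CPM in Mature. In the senile retinas of that version it was 11442, 9103 and 8541 CPM, and the stages overlapped. The Infancy and Mature retinas of version 6.1.2 lay between 17097 and 23075 CPM. Senile 2, the 1 senile retina of version 6.1.2 with rods, was at 11268 CPM. In Infancy and Mature, CLUL1 ranged from 12199 to 17013 CPM in version 6.1.2 and from 3710 to 5455 CPM in version 7.0.1. There NR2E3 went the other way, from 201 to 320 CPM in version 6.1.2 and from 756 to 1422 CPM in version 7.0.1.

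PDE6B in rods had means of 721 ± 168, 907 ± 98.2 and 594 ± 173 CPM (SD), with overlap, and a log2 fold change of -0.43 (SE 0.19, edgeR, Benjamini-Hochberg adjusted p = 0.351). PDE6D had means of 445, 521 and 434 CPM and a log2 fold change of -0.07 (edgeR, Benjamini-Hochberg adjusted p = 0.957). PDE6C in rods, pooled at 9.63% of its cone level, had a log2 fold change of 0.75 (SE 0.53, edgeR, Benjamini-Hochberg adjusted p = 0.610).

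PDE6H in rods was at 87.8 ± 56.2 CPM in Infancy, 116 ± 33.6 CPM in Mature and 305 ± 58.6 CPM in Senile (SD). All 4 senile retinas, from 240 to 383 CPM, lay above all 10 younger ones, which reached 175 CPM. The log2 fold change of Senile against Infancy was 1.72 (SE 0.41, edgeR, Benjamini-Hochberg adjusted p = 0.0766). The summed level of the cone markers in rods was 833, 836 and 891 CPM in the 3 stages, and ARR3 was at 520, 526 and 635 CPM. Senile rods were shallower, with a median of 1905 UMIs against 2551 UMIs in Infancy. The part of depth or of cone RNA in the PDE6H value was not tested.

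In rods, 0 of 5 members passed, where 0.409% of 3912 features did. The same fit gave Senile against Mature, where 0 of 5 members passed, edgeR called 0% of features and 397 had an unadjusted p under 0.05. There the log2 fold change was -0.80 for PDE6A (Benjamini-Hochberg adjusted p = 0.183), -0.66 for PDE6B (0.254) and 1.37 for PDE6H (0.266), all 3 of them among the 397. In Mature against Infancy 0 of 5 passed, where 0.358% of features did, and the adjusted p of the members was 0.820 or more. These further comparisons in rods were not among those planned.

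For Senile against Infancy in rods the alternatives differed. DESeq2 called PDE6A (Benjamini-Hochberg adjusted p = 0.00452) and PDE6H (Benjamini-Hochberg adjusted p = 0.0213) among 54 features in all, against 16 by edgeR. Within version 7.0.1 the log2 fold change was 1.41 for PDE6H and -0.82 for PDE6A, neither past 0.05. Within version 6.1.2 Senile 2 was the 1 senile retina with rods, so those values (2.19 and -0.96) rest on 1 senile sample. Without Infancy 4, PDE6H passed at a log2 fold change of 2.48 (edgeR, Benjamini-Hochberg adjusted p = 0.00426), and without Senile 3, PDE6A passed (edgeR, Benjamini-Hochberg adjusted p = 0.0498). In the rods with no cone-marker UMI PDE6A had a log2 fold change of -0.51 (edgeR, Benjamini-Hochberg adjusted p = 0.539), and PDE6H did not pass the filter on low counts.

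The difference between the stage effects was tested as an interaction. For PDE6H the effect in cones minus that in rods was -1.51 on the log2 scale (SE 0.39, edgeR, Benjamini-Hochberg adjusted p = 0.237). For PDE6C it was -0.89 (edgeR, adjusted p = 0.772), and from -1.40 to 0.0015 with 1 retina left out. For PDE6A it was 0.18 and for PDE6D 0.01. PDE6B passed the filter on low counts through its rod sums and had 158 UMIs in all cones, so its value of -0.10 is no test of a stage effect in cones and is not counted. None of the other 4 passed, where 0.0591% of 11836 features did, and the same fit with no filter on low counts called PDE6H among 39 features.

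Outside photoreceptors PDE6H also had its highest stage mean in Senile. Its means in Infancy, Mature and Senile were 41.1, 51.2 and 120 CPM in BCs, 34.2, 41.6 and 86.8 CPM in ACs, 47.5, 55.6 and 118 CPM in Müller cells, and 101, 115 and 270 CPM in microglia. In ACs the senile retinas had 33.8, 55.5, 88.7, 106.9 and 149 CPM, the infant retinas 48.0, 29.4, 22.6, 58.1 and 12.7 CPM, and the mature retinas 32.6, 28.0, 37.1, 57.4 and 52.7 CPM. Senile 1, the retina without rods, lay within the younger range in ACs, BCs and Müller cells, and the other 4 senile retinas were higher in BCs and all but Senile 2 in ACs. ARR3 went from 58.7 to 84.2 and 125 CPM in BCs and from 54.5 to 68.1 and 86.8 CPM in ACs over the 3 stages, while PDE6C had means of 14.7, 12.7 and 19.4 CPM in BCs and 9.36, 9.57 and 9.71 CPM in ACs. In the 7 classes the log2 fold change of PDE6H for Senile against Infancy lay between 1.04 in RGCs and 1.50 in astrocytes. None of the 7 passed (edgeR, Benjamini-Hochberg adjusted p from 0.125 in astrocytes to 0.537 in Müller cells), and this comparison was not among those planned for PDE6H. The unadjusted p by edgeR was under 0.05 in all 7, from 0.00157 in microglia to 0.0300 in Müller cells. The 7 classes come from the same retinas and are not independent.

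**Figure D5:**
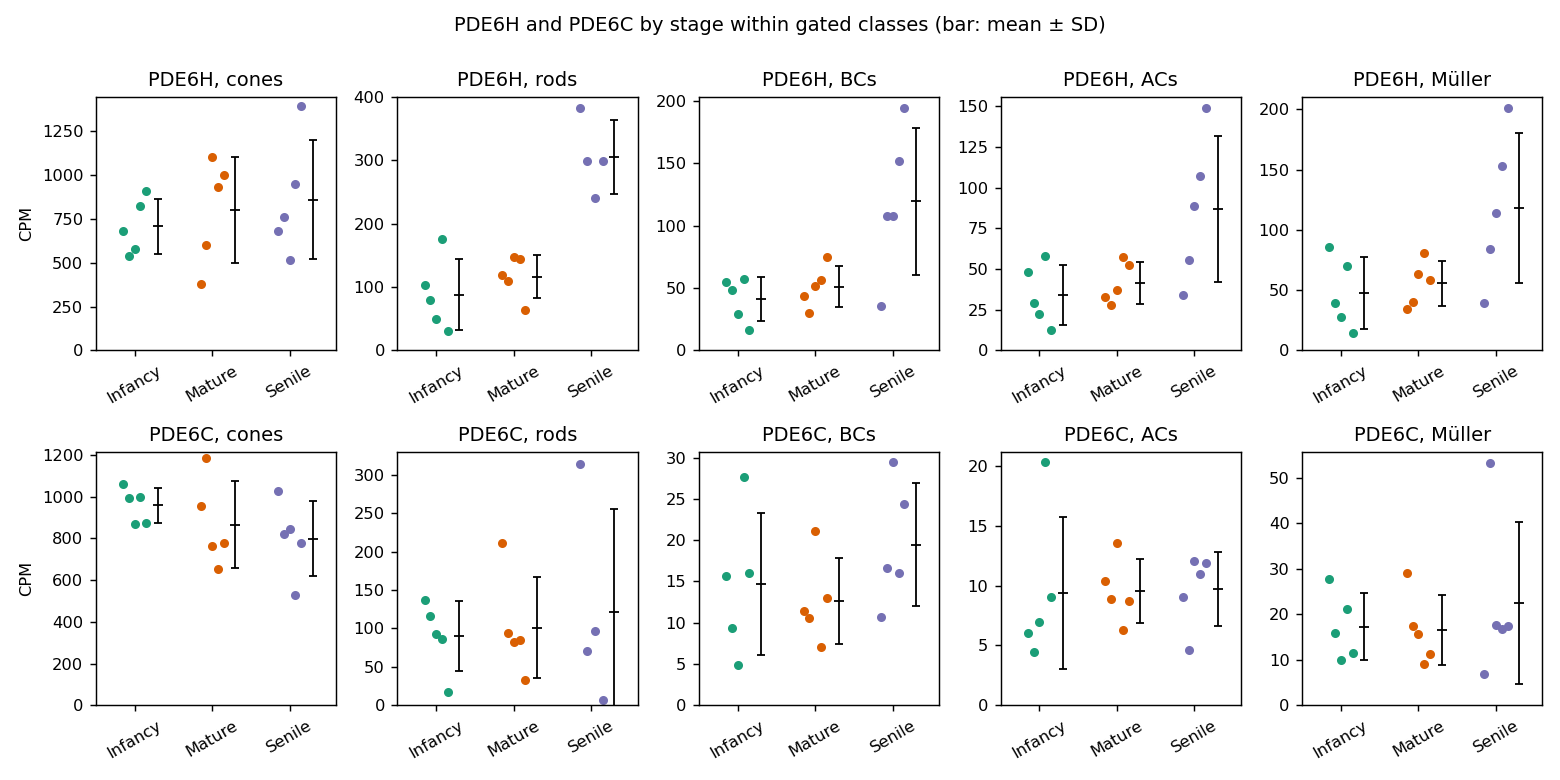
CPM of PDE6H (top) and PDE6C (bottom) by stage in 5 gated classes on linear axes from 0, each panel with its own scale, 1 point per retina, bars for the mean ± SD. PDE6H in rods separates the 4 senile retinas (240 to 383 CPM) from the younger ones (30.6 to 175 CPM), and in cones the stages overlap.

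PDE6D was tested for Senile against Infancy in the other 7 classes and passed in 0. Its log2 fold changes lay between -0.20 and 0.28, with 0 classes at an unadjusted p under 0.05 by edgeR, and DESeq2 also gave 0. The shares of features called there were 0.0775% in microglia, 0.316% in HCs, 0.685% in astrocytes, 0.964% in BCs, 1.00% in Müller cells, 1.06% in ACs and 1.07% in RGCs.

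The partners of PDE6 in the light response were read from a list of 30 genes, which holds transducin and its off switch, the channels gated by cyclic GMP, the cyclases and their activators, and proteins that fold, prenylate or transport PDE6. No channel or cyclase activator had more than 43 UMIs in the gated nuclei, and none was tested. Of the transducin genes, GNGT2 was at 0 UMIs and GNB3 was not listed, so the counts below do not cover these parts. In cones against rods, 14 of its genes outside the gate were tested, where 45.8% of all features were called. Of the 14, 5 were higher in cones, 6 were lower and 3 did not pass, with a median log2 fold change of -0.28 against 0.05 over all features. The 6 with the largest changes were GNGT1 and GNB1, the gamma and beta subunits of rod transducin (-7.19 and -3.97), RGS9BP and GNB5, parts of the complex that turns transducin off (1.28 and 0.63), ICMT, an enzyme that finishes prenylated proteins (-1.12), and GUCY2D, a guanylate cyclase that makes cyclic GMP (0.60). In L-cones against S-cones and by stage, genes of the list that the gate used were counted too. Between the cone types, where 10.3% of features were called and 6.09% were higher in L-cones, 4 of 14 passed, all higher in L-cones. GNAT2, a cone marker of the gate, is among the 14. They were RGS9BP (0.67), RGS9 (0.38), GNAT2 (0.34) and UNC119, a carrier of lipid-anchored proteins (0.27), with a median of 0.20 against 0.05 over all features. No gene of the list passed in cones by stage, with 0 of 15 in each comparison against 1.84%, 1.40% and 0% of features, or in rods, with 0 of 12 against 0.409%.

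The features most like each member were found by Pearson's r of log2(CPM + 1) over 134 sums of a class in a retina among 9046 features. The class markers were left out of these features, as were antisense, LINC and numbered ones, so the members were not compared with them. The sums share libraries, and r is given with no test. PDE6A was most like SLC24A1, the rod cation exchanger (r = 0.872), then GALNT6 (0.847) and PRSS58 (0.834), and PDE6B was most like NIPAL1 (0.868), PON1 (0.851) and SLC24A1 (0.850). PDE6C was most like MORC1 (0.881), SAMD7 (0.873) and IMPG1 (0.858), and PDE6H was most like GOT2 (0.812), GUK1 (0.804) and CKMT1A (0.803). PDE6D was most like ROCK1 (0.910), NDRG3 (0.895) and RUFY3 (0.880).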

How the data were processed

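Nuclei of 15 retinas had been sequenced with a 3′ droplet kit. The deposited matrices hold UMI counts per feature and barcode, which the authors made with Cell Ranger on the TS_3.0 genome. The file headers name version 6.1.2 for 7 libraries and 7.0.1 for 8, whereas the submitters' processing notes give 5.0.1 for 7 and 7.0.1 for 8. Intron and strand settings are not given in the sources used here. Of 83605 features, 27777 carry a gene identifier, and 28.7% of these were at 0 in all libraries.

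Barcodes were kept if their gene number was over 200 and below 6000 and their mitochondrial share below 5%. A nucleus joined the class with the highest mean standardised log level over markers of at least 1000 UMIs, if at least 3 of them were detected and this led the next class by 0.7. The markers hold no PDE6 gene, and the margin was set after the data were seen. The members and gene lists were chosen with earlier results of these data known. Simulated doublets (6.63% of nuclei called, 1273 of 12913 cones and 59 of 1105 rods) stayed in and were left out in an alternative.

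UMIs were summed per retina and class (at least 10 nuclei) and tested with edgeR 4.0.16 (TMM, filterByExpr, quasi-likelihood, R 4.3.3) over all features with Benjamini-Hochberg adjustment and a threshold of 0.05. The retina was the block for class comparisons and the header's Cell Ranger version a covariate for stage. DESeq2 1.42.0 was an alternative, besides other gates, filters, totals and replicates left out. The tests were checked on simulated counts with known changes, a single fixed spread and no retina or version effects. For Senile against Infancy, 2-fold changes were found in 66% of cases in cones and 49% in rods. They were found in 84% of cases for cones against rods and in 60% for L-cones against S-cones. By the study's description the 15 retinas came from 15 animals, 5 per stage, so p-values of the stage comparisons measure the spread between animals and their libraries. In the class comparisons and the interaction the retina was a block, so those p-values measure how far class differences within a retina vary over retinas. Named genes were all members, other features named PDE6, the 3 features most like each member, and members of 2 gene lists past the threshold, up to 6 per comparison. One marker gene is not reported here.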

Additional observations from a re-analysis of the deposited data

Results flagged for a closer look

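In 30 groups of 4 or 5 retinas, 2 had a retina far from the others of its stage. Chance flags about 1 in 20 such groups. PDE6A in the cones of Mature 4 stood at 23.7 CPM, above the other 4 mature retinas, with 0.736 of the whole range lying between it and its nearest neighbour. PDE6B in the rods of Mature 1 stood at 736 CPM, below the other 4, with 0.75 of the range as its gap.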

How the results depend on the processing

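The 4 calls of cones against rods (PDE6A, PDE6B, PDE6C, PDE6H) and the calls of PDE6C and PDE6D between cone types kept their direction and stayed past 0.05 under every alternative run, and leaving out 1 retina at a time changed none of them. The counts of members called were 0 in all cone stage comparisons under every alternative. In rods, Senile against Infancy, 2 members passed with DESeq2 (of 54 features called), 2 with no filter on low counts (of 154), 1 in the retinas of Cell Ranger 6.1.2 alone (of 32, with Senile 2 as the 1 senile retina, assumed to vary like the others), and 0 to 1 with 1 retina left out (of 4 to 23), against 0 of 16 in the reported test. The difference of stage effects had 1 member with no filter (of 39, against 0 of 7).

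The log2 fold changes that turned sign were all uncalled. PDE6D in cones against rods was -0.0052 with a stricter gate, -0.0396 without simulated doublets, -0.0103 with the non-coding feature LINC-FRMD8-1 left out of totals, -0.0492 with thinned sums and -0.0665 in the sign-flip test, and -0.0296 to 0.0539 with 1 retina left out. In Mature against Infancy in cones, PDE6H was 0.0384 with no filter, 0.156 with no version term, 0.216 in the 7.0.1 retinas and 0.0535 with the replicate block, and -0.0762 to 0.172 with 1 retina left out. There PDE6D was 0.0391 and PDE6C 0.153 in the 6.1.2 retinas, and PDE6D was -0.146 to 0.0265 with 1 retina left out. In Senile against Mature in cones the 7.0.1 retinas gave -0.284 for PDE6A and -0.124 for PDE6H, and PDE6D was 0.0471 without Mature 5 and Senile 3. With 1 retina left out the ranges there were -0.0543 to 0.462 for PDE6A, -0.0709 to 0.294 for PDE6H and -0.168 to 0.0174 for PDE6D. In Senile against Infancy in cones PDE6H ranged from -0.0552 to 0.256. In rods PDE6D was 0.0539 with a stricter gate, 0.101 in the 6.1.2 retinas (1 senile retina) and 0.0311 without Mature 5 and Senile 3, and -0.160 to 0.111 with 1 retina left out. The difference of stage effects of PDE6D was -0.0602 with a stricter gate and -0.0181 without doublets, and with 1 retina left out it was -0.0523 to 0.164 for PDE6D, -1.40 to 0.0015 for PDE6C, -0.238 to 0.422 for PDE6A and -0.366 to 0.591 for PDE6B. The cause of these turns was not tested. Leaving out Mature 5 and Senile 3, matching L-cones in depth and using rods without cone-marker UMIs were chosen after seeing the data.

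Counts of all features called moved more than those of members, from 670 to 7754 in cones against rods, 189 to 2508 between cone types, 89 to 882 for Senile against Infancy, 50 to 769 for Mature against Infancy and 0 to 273 for Senile against Mature in cones, 2 to 154 in rods and 5 to 39 for the difference of stage effects.

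Replicate numbers of the stages did not pair the samples. Same-numbered retinas correlated from -0.42 to 0.18 in cones (3 of 15 pairs over 0.1) and from -0.31 to 0.08 in rods (0 of 13). With the replicate block, 169 features were called in cones for Senile against Infancy instead of 268, and no member. Rods rested on 31 to 145 nuclei per retina and 1 retina had none.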

Other observations

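Of 10 other phosphodiesterases that hydrolyse cyclic GMP, 2 passed the filter in cones against rods. Both were lower in cones, where 45.8% of features were called and 20.9% were higher in rods, PDE1C at -1.02 (edgeR, Benjamini-Hochberg adjusted p = 9.24e-06) and PDE1A at -0.64 (edgeR, Benjamini-Hochberg adjusted p = 0.0415). Neither passed between L-cones and S-cones, where 10.3% of features did. By stage in cones 0 of 5 passed in each comparison, against 1.84%, 1.40% and 0% of features. Some gate markers of other classes were also lower in cones than in rods. TRPM1 of BCs was at 20.6 against 46.9 CPM, GRM8 of ACs at 105 against 225 CPM and TF of Müller cells at 29.3 against 67.8 CPM. CALB1 of HCs went the other way (229 against 65.4 CPM). The part of RNA from other classes in the PDE1C and PDE1A values was not tested.

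Features named as antisense to PDE6A were also highest in rods. PDE6A-AS-1 was at 304 CPM there, PDE6A-AS-2 at 24.2 CPM and PDE6A-AS-3 at 201 CPM, and PDE6A-AS-3 was at 13.6 CPM in cones. Whether these reads can be told apart from those of PDE6A depends on how strand was handled, which is not given in the sources used here.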
